A study of Mus musculus with 24 samples.

Results

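Transcripts of EGF family ligands were examined in primary B-cell lymphomas of Eμ-Myc mice before and after treatment with Adriamycin (ADR, doxorubicin). The 6 ligand genes Ereg, Areg, Hbegf, Tgfa, Btc and Nrg1 were chosen by name, and every probe set that the array annotation pairs with 1 gene was taken for each. Of these genes, 5 were measured, by 9 probe sets, among 18193 genes on the array. Areg had no such probe set in the annotation used and was not analysed here.

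All 24 arrays came from lymphoma cells that carried the Eμ-Myc transgene, in which c-Myc is expressed throughout the B lineage, and a retroviral Bcl2 gene (MSCVpuro) that protects from apoptosis. After transduction the cells were selected with puromycin for 48 h and grown on NIH 3T3 mouse fibroblasts that had been gamma-irradiated with 20 Gy. Each of 12 lymphomas was profiled untreated and after 5 days with 0.05 µg/ml ADR in vitro, which gave 12 arrays per group and 12 pairs. The labels give no separate replicate within a lymphoma, so the p-values of the paired fit measure the spread of the paired change between lymphomas. That spread includes differences between cultures and arrays.

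Ligands of this family are made as membrane-anchored precursors, and metalloproteases of the ADAM family release the active growth factor. Epiregulin (Ereg), amphiregulin (Areg), heparin-binding EGF-like growth factor (Hbegf), transforming growth factor alpha (Tgfa) and betacellulin (Btc) bind the EGF receptor. Neuregulin 1 (Nrg1) binds ErbB3 and ErbB4. The receptors signal through RAS and ERK and through PI3K. Epiregulin and amphiregulin are among the growth factors often listed in the senescence-associated secretory phenotype, and in adult tissue the family is best known from epithelium and stroma.

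Ereg and Hbegf were higher after ADR, while no probe set of Tgfa, Btc or Nrg1 passed the test. By limma's paired fit, 3 of 9 ligand probe sets were called higher at an adjusted p under 0.05 over 34945 probe sets, against 11.3% of all probe sets called higher. None of the 9 was called lower (0 also at an unadjusted p under 0.05, against 4 higher), and 12.5% of all probe sets were. The median difference of ADR minus untreated over the 9 probe sets was 0.21 on the log2 scale, beside -0.01 over all probe sets.

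Ereg, the ligand with the largest change, was low in every untreated lymphoma. Its log2 expression lay between 2.90 and 3.79 there, with a median of 3.29, below the highest array median of 4.47 in all 12. After ADR it ranged from 3.36 to 10.87 with a median of 5.05. The highest value after ADR was that of lymphoma 5560 (10.87), followed by 403 (10.03), 3769 (8.48), 2581 (8.36) and 3594 (8.13). Lymphoma 3802 came next at 5.45, and 7050 at 4.65. The remaining 5 ADR arrays lay between 3.36 and 4.24. Thus the treated lymphomas differed from each other far more than the untreated ones did, with an SD of 2.73 against 0.24 (n = 12 each).

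In 10 lymphomas the treated array exceeded the highest untreated array for Ereg, and in lymphomas 1467 and 2949 it did not. The paired difference had a mean of 2.97 (SE 0.68, limma adjusted p = 0.00626) and a median of 1.74. Flipping the signs of the 12 differences in every way, an exact two-sided permutation test, gave p = 0.00195. That mean stands for few of the lymphomas, since 5 differences lay between 4.79 and 7.07 and the other 7 between -0.03 and 1.94. Because Ereg lay near the low end of the array's values before treatment, its difference is given without a fold.

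**Figure D1:**
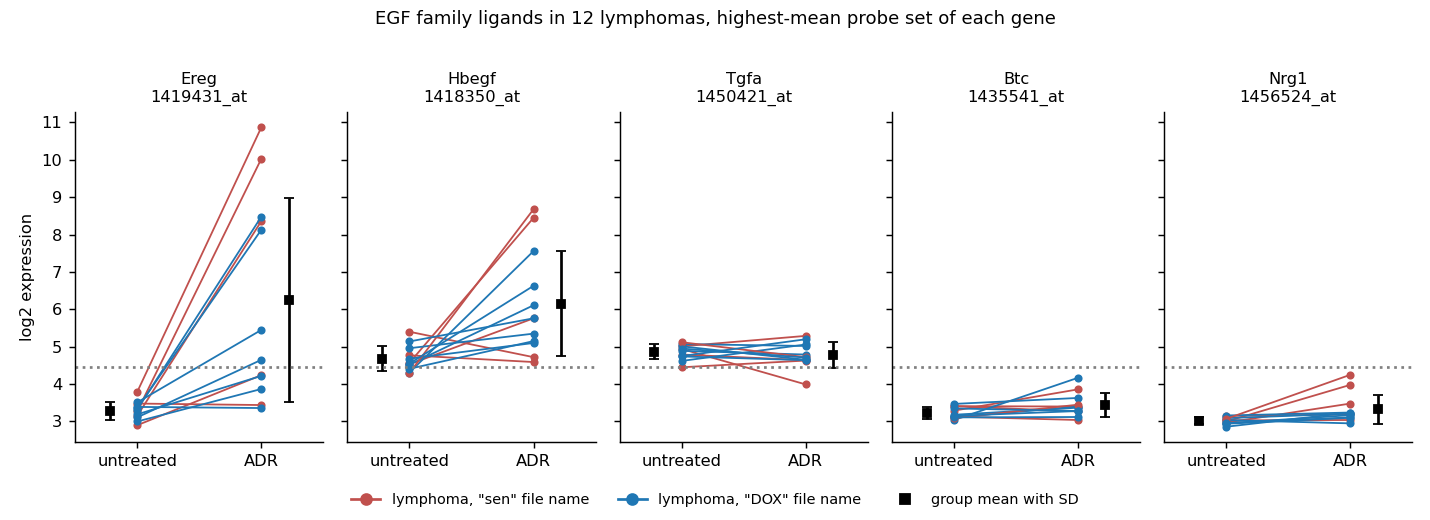
Log2 expression of the highest-mean probe set of each ligand gene in 12 lymphomas, untreated and with ADR. Each line is 1 lymphoma, coloured by the array's file name, squares with bars are group means with SD, and the dotted line is the highest array median (4.47); levels of different genes are not comparable. Ereg lines fan out from between 2.90 and 3.79 to between 3.36 and 10.87, and the Tgfa values stay between 3.99 and 5.29.

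Hbegf, a ligand that also binds heparan sulfate, was read by 2 probe sets, and both were called higher. The probe set with the higher mean, 1418350_at, lay between 4.30 and 5.40 in untreated lymphomas (median 4.56) and between 4.59 and 8.68 after ADR (median 5.76). Lymphomas 5560 (8.68), 403 (8.45) and 3769 (7.56) again had the highest treated values, followed by 5766 (6.63) and 3594 (6.11). The groups overlapped: 7 of 12 treated arrays exceeded the highest untreated one. The means were 4.68 ± 0.34 and 6.15 ± 1.40 (SD, n = 12), a 2.78-fold rise (log2 difference 1.47, SE 0.42, limma adjusted p = 0.0204, exact sign-flip permutation p = 0.00586). It was higher in 10 of 12 lymphomas, and lower by 0.68 in 1467 and by 0.18 in 1570.

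Without lymphomas 403 and 5560 the difference of 1418350_at was 0.94 and not called (limma adjusted p = 0.0571). That pair was left out after its high values were seen, and Ereg was still called without it (2.18, adjusted p = 0.0196). The other Hbegf probe set, 1418349_at, had a smaller difference of 0.84 (SE 0.28, limma adjusted p = 0.0441, higher in 9 of 12). Its untreated values lay between 3.77 and 4.72 and its treated values between 3.96 and 7.02, with 5560 and 403 highest. This call was close to the threshold. It was lost on leaving out lymphoma 403, 2581, 3594, 3769, 5560, 5766, 6054 or 7050 alone, with differences between 0.66 and 0.88 and adjusted p between 0.056 and 0.0939.

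Nrg1, a ligand of ErbB3 and ErbB4, differed by a small amount that did not pass. Its probe set lay between 2.86 and 3.16 in untreated lymphomas and between 2.95 and 4.25 after ADR, near the low end of the array throughout. Only 5560 (4.25), 403 (3.98) and 2581 (3.48) stood above 3.24 after treatment. The mean difference was 0.31 (SE 0.11, limma adjusted p = 0.0543, higher in 11 of 12, exact sign-flip permutation p = 0.00342). Leaving out lymphoma 1467 (difference 0.34, adjusted p = 0.0482) or 2949 (0.35, adjusted p = 0.0389) brought it past the threshold, as did a trended and robust variance (0.31, adjusted p = 0.0432).

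Btc stayed below 4.47 on every array and was not called on either of its probe sets. Probe set 1435541_at lay between 3.04 and 3.47 untreated and between 3.04 and 4.17 with ADR. Its difference was 0.21 (SE 0.10, limma adjusted p = 0.147), higher in 8 of 12, with lymphomas 3769 (1.13) and 403 (0.57) apart from the others. Probe set 1421161_at differed by 0.04 (SE 0.08, adjusted p = 0.776).

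Tgfa showed no called change on any of its 3 probe sets. The one with the highest mean, 1450421_at, lay between 4.45 and 5.12 untreated and between 3.99 and 5.29 with ADR, a difference of -0.08 (SE 0.11, limma adjusted p = 0.657, lower in 8 of 12). Probe set 1421942_s_at differed by -0.04 (SE 0.07, adjusted p = 0.762). The third, 1421943_at, varied more between lymphomas than with treatment. It read 5.67 in untreated 2581 and 5.70 in untreated 3769, against 3.15 to 4.62 in the other 10. After ADR it read 6.06 in 2581 but 3.80 in 3769, and the mean difference was -0.21 (SE 0.21, adjusted p = 0.539).

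**Figure D2:**
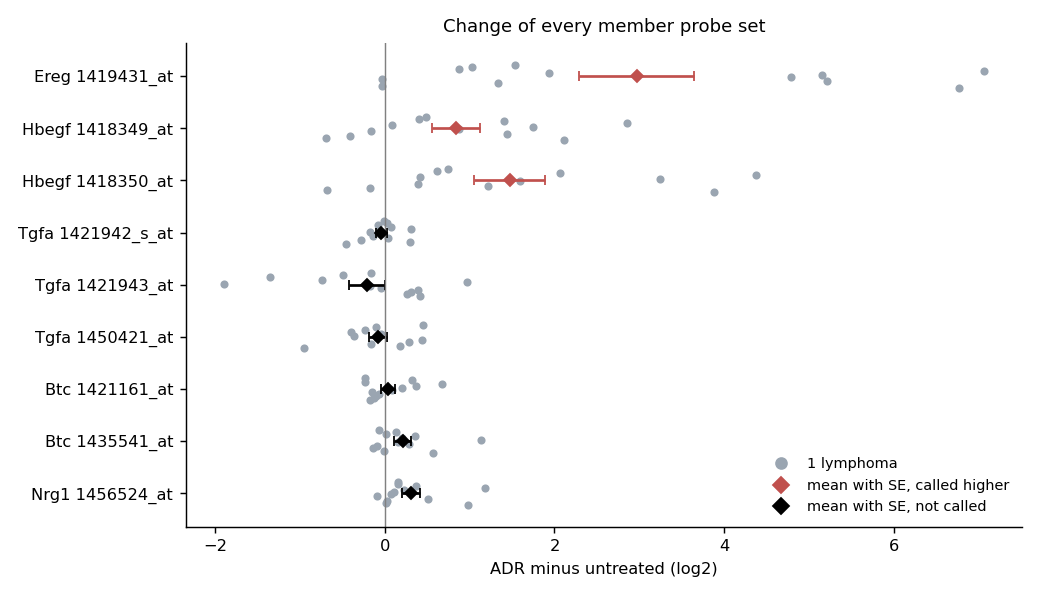
ADR minus untreated on the log2 scale for all 9 ligand probe sets. Grey points are the 12 lymphomas and diamonds with bars are the mean with its SE, red where called higher; the Ereg and both Hbegf means (2.97, 0.84 and 1.47) are red, and the other 6 means lie between -0.21 and 0.31.

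The ligands did not rise in the same order in every lymphoma. For Ereg the difference was 5.21 in 2581 and 0.87 in 5766, whereas for Hbegf 1418350_at it was 1.22 in 2581 and 2.07 in 5766. In 5560 and 403 both ligands had their largest differences, 7.07 and 6.77 for Ereg and 4.38 and 3.88 for Hbegf. In 1467 neither was higher, with -0.03 for Ereg and -0.68 for Hbegf.

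In the RefSeq gene table, Ereg and Areg are adjacent protein-coding genes, with Epgn (epigen) on one side and Btc on the other. Among the measured genes of this run, only Ereg was called. Epgn went from 3.26 to 3.13 (difference -0.13, SE 0.08, limma adjusted p = 0.244), and Btc is given above. Over all 18193 genes, each read by its highest-mean probe set, 13.4% were called higher and 12.5% lower, and the gene lists that follow are read the same way. No other ErbB ligand was called: 0 of 5 genes (Egf, Epgn, Nrg2, Nrg3 and Nrg4) rose or fell by limma, with 0 higher and 1 lower at an unadjusted p under 0.05. Their median difference was -0.12, and 1 of the 5, Nrg2, lay above 4.47.

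The arrays read RNA of the whole culture, feeder cells of mouse origin included, in which more cells of a type and more RNA per cell cannot be told apart. The 11 measured genes of the labelled cell type, B cells, were all above 4.47 in both groups. Many markers of other cell types passed that level too, as given below, so it does not identify the cell type. Of the 11, 3 were called lower with ADR and 0 higher (limma, 4 and 1 at an unadjusted p under 0.05), and 1 was called lower without the lymphoma pairing. Fibroblast markers, chosen because of the feeder layer, were called higher in 24 of 28 genes. Their mean log2 level lay between 4.88 and 5.82 in untreated arrays and between 5.34 and 9.53 with ADR, and 15 of 28 were above 4.47 before and 26 after. Macrophage markers were called higher in 17 of 24 genes, with mean levels of 5.19 to 8.20 and 6.27 to 9.21, and 18 were above 4.47 before and 20 after. Neutrophil markers, with mean levels of 4.07 to 5.45 and 4.41 to 6.51, were called higher in 4 of 12 genes (limma, 6 at an unadjusted p under 0.05). That is a larger share than the 13.4% over all genes, but the calls were S100a8, Lcn2, Mmp8 and Mmp9 only. S100a9, Ltf, Ngp, Elane, Mpo and Cxcr2 were not called and lay below 4.47 in both groups. Of the 12 genes, 5 were above 4.47 before and 6 after, so the calls do not describe the whole list. T and NK cell markers were called higher in 1 of 14 genes and lower in 1, near the shares of 13.4% and 12.5% over all genes. Of 10 epithelial markers, 0 were called higher (limma, 0 also at an unadjusted p under 0.05) and 1 lower.

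The change of Hbegf followed that of the fibroblast markers across lymphomas. Pearson r between the paired changes was 0.919 and Spearman rho 0.937 over 12 lymphomas (permutation p = 3e-05 and 5e-05, adjusted over 10 computed relations 0.0003 and 0.0005). Without 403 and 1467, whose marker changes lay farthest from the median, r was 0.873 (permutation p = 0.00028), and it was 0.764 within the 7 lymphomas whose treated array files were named DOX (exact permutation p = 0.0347). Against macrophage markers r was -0.048 (rho 0.07, permutation p = 0.883 and 0.836, adjusted 0.917 and 0.933). Within the DOX set that r was 0.803 (exact permutation p = 0.0317), so the pooled and the within-set values differed. Without 2581 and 2949 it was -0.147 (permutation p = 0.681).

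For Ereg the 12 differences fell into separate ranges, so its relation to the marker changes was not tested over all lymphomas, and a subset chosen by its own change would have a narrowed range. The 2 such relations computed within lymphomas of small Ereg change count among the 10 but are not used. Single lymphomas show where both moved together and where they did not. In 403 and 5560 the fibroblast marker change was 4.28 and 3.94, the highest of the 12, beside the highest Ereg changes. Lymphomas 1467 and 2949 had fibroblast marker changes of -0.04 and 0.57, the lowest of the 12, and an Ereg change of -0.03 each. Lymphomas 2581, 5766 and 7050 had fibroblast marker changes of 2.51, 2.36 and 2.18 but Ereg changes of 5.21, 0.87 and 1.54. The 5 lymphomas with Ereg changes of 4.79 or more were also the 5 with the highest fibroblast marker changes, from 2.51 to 4.28. In the other 7 the fibroblast marker changes lay between -0.04 and 2.36. This was seen after the values were known, and no r over all lymphomas is given for Ereg to set beside that of Hbegf.

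Nrg1 had r = 0.815 with fibroblast markers (permutation p = 0.00068, adjusted 0.0034) and rho 0.671 (p = 0.02, adjusted 0.1). Without 403 and 1467 r was 0.749 (permutation p = 0.00951), and within the DOX set it was 0.34 (exact permutation p = 0.474). The r of 0.749 still includes lymphoma 5560, with the largest Nrg1 change (1.18) and a fibroblast marker change of 3.94. Every Nrg1 value lay below 4.47. Tgfa ran the other way, with r = -0.656 and rho -0.636 (permutation p = 0.02 and 0.0304, adjusted 0.0666 and 0.101). That relation rests on 403 and 1467, since r was -0.429 without them (permutation p = 0.216), and within the DOX set it was -0.474 (exact permutation p = 0.276). Btc had r = 0.407 and rho 0.434 (permutation p = 0.193 and 0.161, adjusted 0.483 and 0.403), r = 0.244 without 403 and 1467 and 0.192 within the DOX set. With macrophage markers r was 0.248 for Tgfa, -0.034 for Btc and -0.153 for Nrg1, and adjusted permutation p of r and rho lay between 0.73 and 0.956. Without 2581 and 2949 r was 0.41, 0.211 and -0.551 in that order, and within the DOX set every sign was turned, at -0.621, 0.434 and 0.419 (exact permutation p = 0.116, 0.38 and 0.353).

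**Figure D3:**
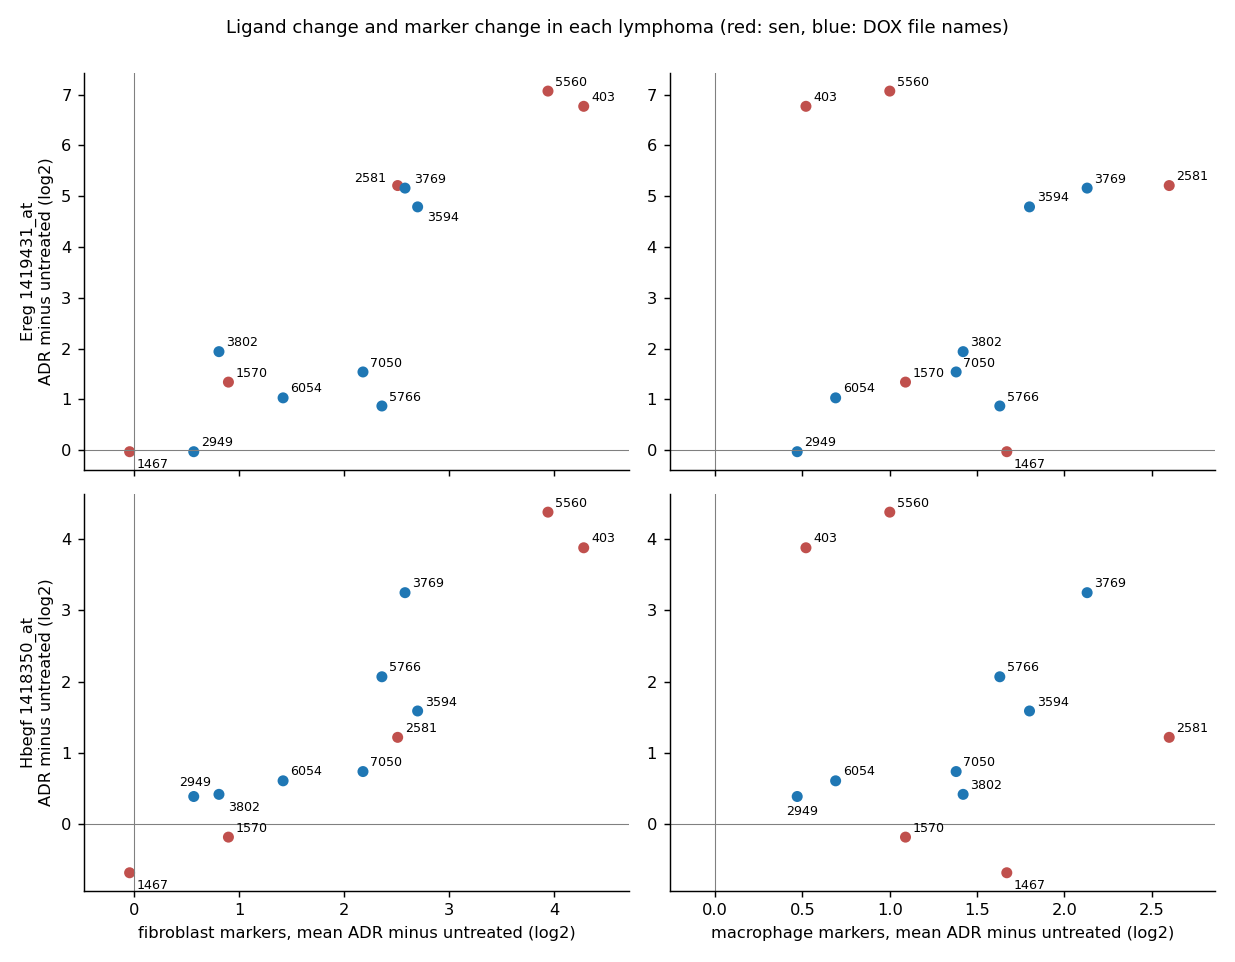
Paired change of Ereg (top) and Hbegf (bottom) against the mean paired change of fibroblast markers (left) and macrophage markers (right), all log2, 1 point per lymphoma with its number. Hbegf rises along the fibroblast axis (r = 0.919). The 5 highest Ereg changes lie at the 5 highest fibroblast marker changes. Lymphomas 2581 and 5766 sit apart for Ereg (5.21 and 0.87) at like fibroblast marker changes (2.51 and 2.36).

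In a fit with the fibroblast marker mean of each array as a covariate, neither ligand kept its call and both estimates turned sign. Ereg had a difference of -0.56 (limma adjusted p = 0.706) and Hbegf -0.78 on 1418350_at (adjusted p = 0.202) and -0.70 on 1418349_at (adjusted p = 0.0664). With the macrophage marker mean instead, the estimates were 1.96 for Ereg and 1.64 for Hbegf 1418350_at, without a call; in that fit limma called 0 of all probe sets, with 3764 at an unadjusted p under 0.05. Both fits read the difference at no marker change, where few lymphomas lie for fibroblast markers and none for macrophage markers (lowest change 0.47). The part of fibroblasts or macrophages in the rise of the ligands was not tested. Within the DOX set alone, Ereg (2.18, limma adjusted p = 0.0448) and Hbegf 1418350_at (1.30, adjusted p = 0.0311) were called. In the 5 lymphomas of the set named sen, the values were 4.07 (adjusted p = 0.112) and 1.72 (adjusted p = 0.288). The difference between the sets was 1.89 for Ereg (SE 1.33, limma adjusted p = 0.815) and 0.43 for Hbegf (SE 0.87, adjusted p = 0.942).

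The genes whose levels were most like Ereg over the 24 arrays were Thbs2 (Pearson r = 0.992), Osmr (0.983), Tnc (0.981) and Cxcl1 (0.981). These arrays share the treatment and the pairing, and the 5 lymphomas with large Ereg differences weigh on each r, so the values are descriptions. Thbs2, thrombospondin 2 of the extracellular matrix, went from 3.57 ± 0.14 to 6.07 ± 2.51 (SD, n = 12). Osmr, the oncostatin M receptor, went from 2.99 to 5.47, and Tnc, the matrix glycoprotein tenascin C, from 3.91 to 5.78. Cxcl1, a neutrophil-attracting chemokine, went from 6.17 to 8.35, which is 4.55-fold higher. Closest to Hbegf were Snx7 (0.965), Gsto2 (0.962), Sox9 (0.957) and Fermt2 (0.957), with differences of 1.44, 1.49, 1.22 and 1.16. All 8 were picked for their likeness over arrays that include the treatment, which fixes that they share the ligands' differences. The highest-mean probe sets of Tgfa, Btc and Nrg1 did not exceed 6 on any array, so no like genes were sought for them.

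The receptors of these ligands showed little change. Egfr, the receptor of most members, was read by 7 probe sets, of which 0 were called by limma (0 also at an unadjusted p under 0.05). Its highest probe set, 1460420_a_at, had a mean of 6.17 untreated and 6.13 with ADR, and the differences of the 7 lay between -0.11 and 0.02. Only 2 of the 7 lay above 4.47 in both groups, so the others could show little of a change. Erbb2, a receptor with no known ligand of its own that pairs with the others, rose 1.28-fold (4.56 ± 0.21 to 4.91 ± 0.32, SD, n = 12, limma adjusted p = 0.00583) in 11 of 12 lymphomas. That call was lost with the fibroblast covariate (0.14, limma adjusted p = 0.662), the macrophage covariate (0.60, adjusted p = 0.285) and in the sen set (0.29, adjusted p = 0.328). Erbb2 values lay near 4.47, from 4.20 to 4.92 untreated and from 4.41 to 5.38 with ADR. Erbb3, a receptor of Nrg1, differed more between lymphomas than with treatment. It ranged from 4.53 to 8.43 untreated, highest in lymphoma 3594, and from 4.95 to 7.61 with ADR. The difference was -0.32 (SE 0.13, limma adjusted p = 0.0937). Erbb4 stayed at 2.62 and 2.61, below 4.47.

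Among genes that release or carry the ligand precursors, 7 of 14 were called higher and 0 lower (limma; 9 and 0 at an unadjusted p under 0.05). The shares over all genes were 13.4% and 12.5%, as above. The median difference of the list was 0.45, beside -0.01 over all genes. Adam17, the protease best known for cleaving Areg, Hbegf and Tgfa precursors, was not called on any of 3 probe sets, with differences between -0.03 and 0.26. Its largest, of 1421858_at, was called without lymphomas 403 and 5560 (0.34, adjusted p = 0.0298). Adam8, a metalloprotease of leukocytes, rose 4.38-fold in 12 of 12 lymphomas (6.68 to 8.81, limma adjusted p = 3.2e-05). The tetraspanin gene Cd9, whose product associates with the Hbegf precursor, rose 3.71-fold (6.19 to 8.08, adjusted p = 0.00281). Timp3, which encodes an inhibitor of ADAM17, went from 3.14 to 4.89. Adam8 was the 1 gene of the list still called with the fibroblast covariate (1.91, adjusted p = 0.0242), where Cd9 was at 0.14 and Timp3 at -0.61. With the macrophage marker mean Adam8 was at 0.65 (adjusted p = 0.489), and with both marker means at 0.45 (adjusted p = 0.711). In the sen set 1 gene of the list was called. Over all 34945 probe sets, limma called 521 higher with the fibroblast covariate, 0 with the macrophage covariate and 457 in the sen set. The main fit called 3953 higher, so calls were lost over the whole array in these fits.

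Adaptors and kinases between the receptors and ERK or PI3K were called higher in 8 of 22 measured genes and lower in 0 (limma; 11 and 0 at an unadjusted p under 0.05), with a median difference of 0.18. That count was 5 with a trended and robust variance, 4 with arrays centred on their medians, 3 without lymphomas 403 and 5560 or in the DOX set, and 2 with the fibroblast covariate. It was 1 without the lymphoma pairing and 0 in the sen set or with the macrophage covariate (limma; 6, 6 and 4 at an unadjusted p under 0.05). Of all 34945 probe sets, limma called 521 higher with the fibroblast covariate, 0 with the macrophage covariate and 457 in the sen set. It called 2552 higher in the DOX set and 2371 without the pairing.

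Inhibitors that damp ErbB or ERK signalling were called higher in 10 of 16 genes and lower in 1, with a median difference of 0.60 (limma; 10 and 1 at an unadjusted p under 0.05). The ERK phosphatase genes Dusp6 and Dusp4 rose 3.77-fold (7.64 to 9.56, limma adjusted p = 0.00484) and 3.58-fold (6.01 to 7.85, adjusted p = 0.00159), each in 11 of 12 lymphomas. Socs5, a suppressor of cytokine and EGF receptor signalling, rose 3.08-fold in 12 of 12 (adjusted p = 0.000208). Errfi1, an inhibitor of the EGF receptor named after its value was seen, rose 2.69-fold (6.13 to 7.55, adjusted p = 0.00347). Spry1, which restrains RAS and ERK signalling, was 1.29-fold lower in 11 of 12 (adjusted p = 0.0154). With the fibroblast covariate 0 of the 16 were called higher (limma, 2 at an unadjusted p under 0.05), and Spry1 was called lower (-0.75, adjusted p = 0.0104). With the macrophage covariate 0 were called either way (limma; 2 higher and 1 lower at an unadjusted p under 0.05). Without the lymphoma pairing 5 were called higher, and Dusp6 (adjusted p = 0.0604), Dusp4 (0.073) and Spry1 (0.46) were not called. The count of rises was 6 in the DOX set and 2 in the sen set. Of all 34945 probe sets, 2552 were called higher in the DOX set and 457 in the sen set by limma. The fit with the fibroblast covariate called 521 higher, that with the macrophage covariate 0 and that without pairing 2371.

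Genes that ERK signalling is known to induce were called higher in 8 of 17 cases and lower in 0 (limma; 13 and 0 at an unadjusted p under 0.05), with a median difference of 1.16. Ptgs2, the inducible cyclooxygenase, rose 9.48-fold (5.03 to 8.27, limma adjusted p = 0.00214). Phlda1, a gene induced by growth factors, rose 3.95-fold (adjusted p = 0.0179), a call lost without 403 and 5560 (1.45, adjusted p = 0.0748). The AP-1 member Fosl1 went from 4.01 to 5.94 in 12 of 12 lymphomas (adjusted p = 0.0015). Egr1 differed by 1.40 with an SE of 0.75 and did not pass (adjusted p = 0.209). The list's mean change was highest in 5560 (2.88) and 2581 (2.64) and below 0 in 2949 (-0.47) and 1467 (-0.44). Ereg was not higher in 2949 and 1467, which also had the lowest fibroblast marker changes (0.57 and -0.04). Those of 5560 and 2581 were 3.94 and 2.51. A link between the ligands and these genes was not tested. With the fibroblast or the macrophage covariate 0 of the 17 were called higher (limma, 2 and 1 at an unadjusted p under 0.05). The count was 5 without the lymphoma pairing and 1 in the sen set. Of all 34945 probe sets, limma called 521 higher with the fibroblast covariate and 0 with the macrophage covariate. Without the pairing 2371 were called higher, and 457 in the sen set. The lost calls were thus not particular to this list.

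**Figure D4:**
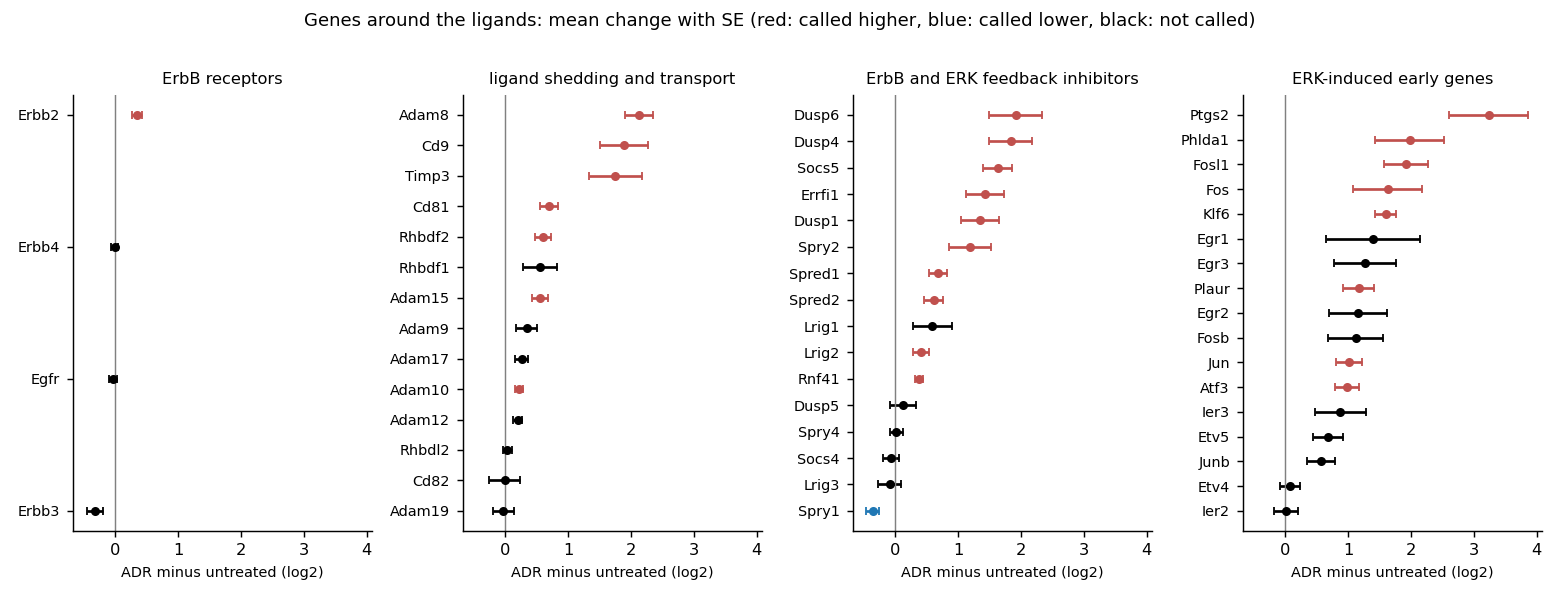
ADR minus untreated (log2, mean with SE over 12 pairs) for the receptors, the genes of ligand shedding and transport, the feedback inhibitors and the ERK-induced early genes, each by its highest-mean probe set. Red genes were called higher (1 of 4, 7 of 14, 10 of 16 and 8 of 17), the blue gene, Spry1, lower, and black genes were not called.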

How the data were processed

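Labelled cRNA from total RNA was read on Affymetrix arrays. The values deposited by the authors are log2 expression per probe set. The submitters' processing notes name RMA and Partek without settings. Values lay between 1.97 and 14.36, with array medians from 4.38 to 4.47. RMA compresses differences of weak probe sets, so probe sets with a group mean at or below 4.47 are given without a fold. The number of lymphomas limits the precision. Scanner files were not used here.

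Of 45101 probe sets, 34945 name a single gene, 932 name several genes, 9160 name no gene and 64 are controls. The annotation was GEO's for this platform. The 34945 were tested with limma 3.58.1 in R 4.3.3 (lmFit, eBayes), with the lymphoma as a block and Benjamini-Hochberg adjustment, and called at an adjusted p under 0.05. Lists used the highest-mean probe set of each gene. The series' design text states that profiles were matched pairs, and the lymphoma numbers come from the titles. The correlation of paired arrays' deviations from the group mean lay between 0.257 and 0.589 and was over 0.1 in 12 of 12. No arrays were identical. The sign-flip test used 4096 patterns (smallest p 0.000488), and correlations 100000 resamples, or all orderings under 10 lymphomas, in Python 3.11.15. The fit was tested on simulated data.

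Members and lists were chosen with earlier results of these data known. Named genes are all members, the receptors, Adam17, the 4 genes most like a member that exceeded 6 on at least 3 arrays, and up to 3 called rises and 2 called falls per list. Epgn, Nrg2, Errfi1, Egr1 and the neutrophil genes were named after their values were seen. Alternatives covered the block, centring, quantile normalization, dim probe sets, 1 probe set per gene, variance, left-out lymphomas, file naming and marker covariates.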

Additional observations from a re-analysis of the deposited data

How the results depend on the processing

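Ereg and Hbegf 1418350_at kept their direction and call without the lymphoma pairing (no replicate block), with centred or quantile-normalized arrays, with 1 probe set per gene, with a trended variance and on leaving out any 1 lymphoma. Hbegf also kept its call among probe sets above the median of all values, where Ereg was not tested. On leaving out 1 lymphoma the difference ranged from 2.60 to 3.24 for Ereg, 1.21 to 1.67 for Hbegf, -0.13 to 0.00 for Tgfa, 0.13 to 0.24 for Btc and 0.23 to 0.35 for Nrg1. All calls of members were lost with marker covariates. The covariate fits read the difference at no marker change. Few lymphomas lie near that for fibroblast markers, and none for macrophage markers, whose lowest change was 0.47. The cause was not tested.

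With the fibroblast marker mean the values were -0.56 (Ereg), -0.78 and -0.70 (Hbegf), 0.31 (Tgfa), -0.01 (Btc) and -0.18 (Nrg1); with the macrophage mean 1.96 (Ereg) and 1.64 (Hbegf). With both they were -1.49 (Ereg), -0.58 and -0.91 (Hbegf), 0.10 (Tgfa) and -0.05 (Nrg1). The sen set alone gave 4.07 (Ereg) and 1.72 (Hbegf), and the DOX set 0.01 for Tgfa. Without 403 and 5560 the values were 0.94 (Hbegf) and 0.04 (Tgfa), and a trended variance gave 0.31 (Nrg1).

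The 8322 called probe sets became 5192 in the fit without pairing (no replicate block), 4829 with 1 probe set per gene (fewer tested), 1350 in the sen set, 5176 in the DOX set, 1440 with the fibroblast covariate, and 0 with the macrophage covariate or both (limma, 3764 and 4186 at an unadjusted p under 0.05). On leaving out 1 lymphoma they ranged from 6740 to 8920.

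Genes named after their values were seen, Errfi1 among them, were not followed here. Among the other genes that were named by the rule and called, a sign turned only with covariates. With fibroblast markers these were Cxcl1 -0.33, Fermt2 -0.33, Fosl1 -0.04, Gsto2 -0.40, Osmr -0.50, Phlda1 -0.71, Snx7 -0.77, Sox9 -0.26, Thbs2 -0.61, Timp3 -0.61 and Tnc -0.70. With both markers they were Cd9 -0.36, Cxcl1 -0.95, Dusp6 -1.25, Fosl1 -0.18, Gsto2 -0.06, Osmr -0.65, Phlda1 -1.97, Ptgs2 -1.72, Snx7 -0.67, Sox9 -0.40, Thbs2 -1.41, Timp3 -0.68 and Tnc -0.80.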

Other observations

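Lymphomas with like fibroblast marker changes differed in the ERK-induced early genes as well as in Ereg. The list's mean change was 2.64 in 2581, 2.37 in 3594 and 2.31 in 3769, with fibroblast marker changes of 2.51, 2.70 and 2.58. It was 0.52 in 5766 and 1.19 in 7050, with fibroblast marker changes of 2.36 and 2.18. Ereg changed by 5.21, 4.79 and 5.16 in the first 3 and by 0.87 and 1.54 in the last pair. Hbegf 1418350_at did not follow that order, at 1.22, 1.59 and 3.25 against 2.07 and 0.74. Macrophage marker changes were 2.60, 1.80 and 2.13 in the first 3 and 1.63 and 1.38 in the last pair. Thus the first 3 lay above the last pair in both fibroblast and macrophage marker changes. These lymphomas were picked after their values were seen, and no test was made.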
